A study of Schizosaccharomyces pombe with 12 samples.

Results

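The genes described here are cnp1, pht1 and ams2 of the fission yeast Schizosaccharomyces pombe, the first encoding the centromeric histone H3 variant Cnp1 (CENP-A), the next the histone H2A variant Pht1 (H2A.Z), and the last Ams2, a GATA-type transcription factor of the histone genes. They were chosen by name through the platform annotation, which gave 3 probe sets, 1 per gene (1776836_at for cnp1, 1771144_at for pht1 and 1769790_at for ams2), of 2917 probe sets with exactly 1 S. pombe gene (2899 genes). Labelled cRNA made from total RNA was measured on 12 single-colour Affymetrix Yeast Genome 2.0 arrays, so that each of 3 strains has 1 array in each of 4 conditions. Beside wild type (WT) there were strains lacking slm9 (slm9D, slm9::ura4) or hip1 (hip1D, hip1::ura4), and all of them, WT included, were h-, leu1-32 and ura4-D18. Slm9 and Hip1 are subunits of HIRA, a chaperone complex that places histones H3 and H4 on DNA, and the series asks what HIRA does when cells meet a low dose of stress. Cells had grown to log phase in YES, a rich medium, at 32 °C. They were then left unstressed, kept for 1 h at 40 °C, given 25 mM H2O2 (hydrogen peroxide) during 1 h, or taken through both steps, 40 °C first and 25 mM H2O2 after it, 1 h each.

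Nucleosomes made in S phase hold the core histones H2A, H2B, H3 and H4, whose genes are transcribed in a burst at that stage. Variants are placed by their own loading factors. Cnp1 replaces H3 at centromeres, where it marks the site of the kinetochore, and Pht1 replaces H2A near promoters through the SWR1 remodelling complex. Ams2 is itself periodic, drives the S-phase transcription of core histone genes, is needed for normal Cnp1 at centromeres, and is removed by the SCF-Pof3 ubiquitin ligase after phosphorylation by the kinase Hsk1-Dfp1.

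Every value below is log2 of a deposited intensity, and a difference of 1 on that scale is a 2-fold change of the signal. The array medians over S. pombe probe sets were 9.46 to 9.57, except for 9.36 in WT after H2O2. The slm9 signal was 4.84 to 5.39 in slm9D and 9.23 to 9.95 elsewhere, the hip1 signal 8.30 to 8.47 in hip1D and 9.33 to 9.83 elsewhere, and ura4, the marker of both deletions, 4.16 to 5.15 in WT and 11.17 to 11.82 in the mutants. No strain and condition has a second array. The design text speaks of growth in quadruplicate and of aliquots, without saying whether a strain's 4 conditions came from 1 culture or several. The p-values therefore cover no more than the spread among these arrays, which may be technical. In fits over strains or conditions that spread also includes how the strains differ in their responses. In RNA from whole cultures, fewer cells expressing a gene and less RNA per cell cannot be told apart, and the share of cells in S phase was not measured.

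All 3 probe sets were above background on all 12 arrays. Background was taken as the 95th percentile of probe sets whose annotated gene is not in the S. pombe table, 3.743 for probe set means, and the mean signals stood above it by 3.45 for cnp1, 6.11 for pht1 and 3.46 for ams2. The signals of cnp1 and ams2 lay low within each array: 4.8% to 21% of S. pombe probe sets had a lower signal than cnp1, and 6.1% to 19.7% a lower one than ams2, against 42.3% to 66.5% for pht1. That part of the signal range was not level between strains, since the 5th percentile of the S. pombe probe sets was 5.24 to 6.37 on the WT arrays and 6.41 to 6.97 on the mutant arrays. The WT arrays also had the higher background in every condition (3.73 to 4.03 against 3.55 to 3.8 in the mutants). A second quantile normalization, restricted to the S. pombe probe sets, moved cnp1 and ams2 more than pht1. On the WT array after H2O2, for example, ams2 went from 6.95 to 7.502, cnp1 from 7.87 to 8.24 and pht1 from 9.94 to 9.98. Where it changes a call it is named beside the result as the other normalization.

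cnp1 was the most variable of the 3, with an SD of 0.58 over the 12 arrays, above the SD of 81.8% of all probe sets (median SD 0.337). Unstressed, its signal was 7.18 in WT, 6.52 in slm9D and 6.51 in hip1D. At 40 °C it was 7.73 in WT, 7.57 in slm9D and 7.60 in hip1D. After H2O2 alone it was 7.87 in WT, 6.32 in slm9D and 6.42 in hip1D. After 40 °C and then H2O2 it was 7.65 in WT, 7.36 in slm9D and 7.54 in hip1D. WT was the highest strain in all 4 conditions, and the mutants lay far below it in unstressed cells and after H2O2 alone but close to it wherever the cells had first been at 40 °C.

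ams2 varied over the widest range, 1.82, with an SD of 0.50, above that of 75.4% of probe sets. Its unstressed signal was 8.25 in WT, 7.62 in slm9D and 7.65 in hip1D. At 40 °C the values were 7.47 in WT, 7.43 in slm9D and 7.28 in hip1D. H2O2 alone left it at 6.95 in WT, 6.90 in slm9D and 6.72 in hip1D. After both stresses it was 6.43 in WT, 6.86 in slm9D and 6.93 in hip1D. Thus the unstressed WT array was the highest of the 12 and the WT array after both stresses the lowest as deposited, with all mutant arrays between them. With the other normalization the lowest was hip1D after H2O2 (6.636), and WT after both stresses (6.842) was above slm9D (6.752) and hip1D (6.76).

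pht1 moved least, with an SD of 0.27, above that of 34.3% of probe sets. Unstressed, it was 10.26 in WT, 9.85 in slm9D and 9.88 in hip1D. At 40 °C the strains lay within 0.08, at 10.02 in WT, 10.10 in slm9D and 10.04 in hip1D. After H2O2 alone the signal was 9.94 in WT, 9.69 in slm9D and 9.68 in hip1D. After both stresses it was 9.20 in WT, 9.73 in slm9D and 9.81 in hip1D. WT held both extremes of the 12 arrays, its unstressed signal at the top and its signal after both stresses at the bottom, also with the other normalization (10.21 and 9.22).

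**Figure D1:**
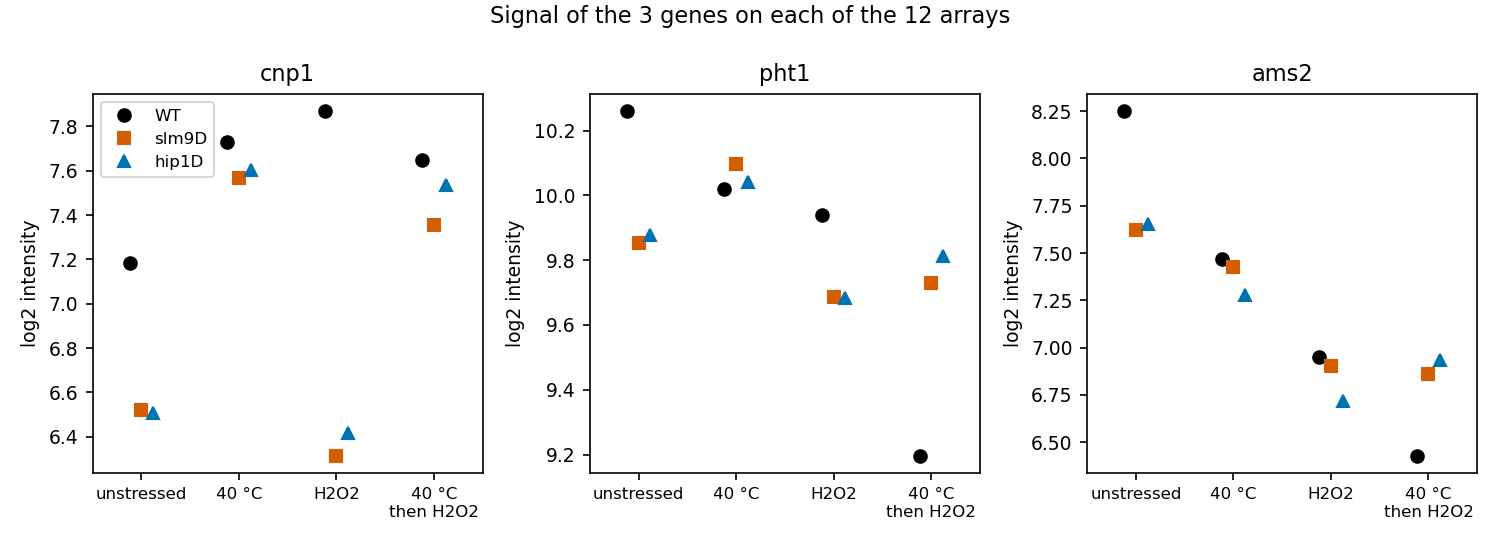
Signal of cnp1, pht1 and ams2 (y axis, log2 intensity, a different range in each panel) in the 4 conditions (x axis), with 1 point per array for WT (circles), slm9D (squares) and hip1D (triangles). The mutants lie together in each condition, the largest gap between them being 0.182 (ams2). In unstressed cells WT lies above them for cnp1, pht1 and ams2 (mutants minus WT -0.671, -0.395 and -0.615). After H2O2 WT lies above them for cnp1 (-1.505) and, by less, pht1 (-0.257). After 40 °C then H2O2 WT lies below them for pht1 (0.575) and, as deposited only, for ams2 (0.468).

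The first question is how each gene responded to the stresses over the 3 strains. The spread behind these tests includes any difference between the responses of WT and the mutants, which widens the intervals. Heat raised cnp1: its mean was 6.74 ± 0.39 in unstressed cells and 7.63 ± 0.09 at 40 °C (SD, n = 3 strains), a difference of 0.90 ± 0.26 (SE; 95% interval 0.32 to 1.48), or 1.86-fold, with an adjusted p of 0.0174. After 40 °C then H2O2 it was again higher than in unstressed cells, by 0.78 ± 0.26 (adjusted p = 0.0267), and the difference had the same sign in 3 of 3 strains in both comparisons. H2O2 alone gave 6.87 ± 0.87, and its difference from the unstressed level did not pass (0.13 ± 0.26, interval -0.45 to 0.71, adjusted p = 0.70), with WT 0.69 higher and both mutants lower, by 0.21 in slm9D and 0.09 in hip1D. The order of the condition means was 40 °C, then both stresses, H2O2 alone and unstressed, and no neighbours in that order passed the test (adjusted p of 0.727, 0.0757 and 0.70).

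Whether the rise of cnp1 with heat passed depended on the strains fitted and on the scaling. The rise was 0.546 in WT, 1.045 in slm9D and 1.097 in hip1D. Without slm9D its difference was 0.82 with an adjusted p of 0.133, and without hip1D 0.80 with 0.137, while with the other normalization it was 0.74 with 0.0538. The rise after both stresses had an adjusted p of 0.0136 with the latter, but lost its call without slm9D (0.75) or without hip1D (0.65).

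ams2 fell with H2O2. Its mean was 7.84 ± 0.36 in unstressed cells, 7.39 ± 0.10 at 40 °C, 6.86 ± 0.12 after H2O2 and 6.74 ± 0.27 after both stresses (SD, n = 3 strains), and each stressed signal was below the unstressed one in 3 of 3 strains. The fall was 0.98 ± 0.20 after H2O2, 1.98-fold (interval -1.43 to -0.54, adjusted p = 0.00352), and 1.1 ± 0.20 after both stresses, 2.14-fold (adjusted p = 0.00112). At 40 °C the difference of -0.45 ± 0.20 did not pass (adjusted p = 0.0862). That comparison passed with the other normalization (-0.62, adjusted p = 0.0068) and when only the arrays of those conditions were fitted (adjusted p = 0.0493). Adding H2O2 to heat lowered ams2 further, by 0.65 ± 0.20 (adjusted p = 0.0238), a call lost with the other normalization (-0.28, adjusted p = 0.153) and without slm9D or hip1D. Heat before H2O2 made no difference that passed (-0.12 ± 0.20, interval -0.56 to 0.33, adjusted p = 0.664), and among neighbours in the order of means neither unstressed and 40 °C nor H2O2 and both stresses passed, and 40 °C and H2O2 were not compared.

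For pht1 no stress comparison passed. Its condition means were 9.997 ± 0.228 unstressed, 10.05 ± 0.04 at 40 °C, 9.77 ± 0.15 after H2O2 and 9.58 ± 0.34 after both stresses (SD, n = 3 strains). The differences from unstressed cells were 0.06 ± 0.18 at 40 °C (adjusted p = 0.813), -0.23 ± 0.18 after H2O2 (adjusted p = 0.32) and -0.42 ± 0.18 after both stresses (interval -0.81 to -0.02, adjusted p = 0.0678). Most of the last difference came from WT, where pht1 was lower by 1.06, against 0.12 in slm9D and 0.06 in hip1D. Both stresses against 40 °C alone gave -0.47 ± 0.18 with an adjusted p of 0.0525, just outside the threshold, and it passed under 4 of the other settings tried, with adjusted p of 0.0476, 0.0417 and 0.0239 and, without WT, 0.000143 (-0.30).

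These calls have to be read against a transcriptome that moved widely. Of all probe sets, 48.4% were called at 40 °C against unstressed cells (1 of the 3 genes), 45% after H2O2 (1 of 3), 57.3% after both stresses (2 of 3), 35.8% between both stresses and H2O2 alone (0 of 3) and 45.7% between both stresses and 40 °C alone (1 of 3). The interaction of heat and H2O2, which tests whether the effect of H2O2 differs with the earlier 40 °C step, was called for 14.7% of probe sets and for none of the 3 genes in limma (cnp1 -0.25 ± 0.36, pht1 -0.24 ± 0.25 and ams2 0.33 ± 0.28, adjusted p of 0.677, 0.536 and 0.44). Without WT the spread was that between the mutants alone, and 5 further comparisons passed: cnp1 in both stresses against H2O2 (1.08, adjusted p = 4.55e-09), pht1 at 40 °C (0.20, adjusted p = 0.00383) and after H2O2 (-0.18, adjusted p = 0.0089), ams2 at 40 °C (-0.28, adjusted p = 0.00626) and the ams2 interaction (0.37, adjusted p = 0.015). All stress comparisons share the unstressed arrays or the arrays after both stresses, so their values for a gene are not independent of each other.

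The next question is how the mutants differed from WT within a condition. Both mutants also carry the marker ura4, whose signal was low in WT. Loss of HIRA and presence of the marker therefore cannot be told apart in any comparison of mutants with WT. Here the spread came from the gap between slm9D and hip1D, and the lone WT array of a condition was assumed to vary like them, so these p-values hold no WT replicate. In unstressed cells all 3 genes were lower in the mutants than in WT: cnp1 by 0.67 ± 0.10 or 1.59-fold (adjusted p = 3.61e-05), ams2 by 0.62 ± 0.10 or 1.53-fold (adjusted p = 0.000119) and pht1 by 0.39 ± 0.07 or 1.31-fold (adjusted p = 0.000184). In that comparison 60.6% of all probe sets were called, and 34.6% of all were lower in the mutants. The count of 3 of 3 was not tested against these shares.

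After H2O2 alone cnp1 had the largest mutant difference of the 3 genes in any condition, -1.505 ± 0.10 (interval -1.72 to -1.29, adjusted p = 2.26e-09). It was 2.94-fold lower in slm9D and 2.74-fold lower in hip1D than in WT, on linear signals of 79.6 and 85.5 against 234.1. pht1 was lower by 0.26 ± 0.07 (adjusted p = 0.00374). The ams2 difference of -0.14 ± 0.10 did not pass (adjusted p = 0.231), though it did with the other normalization (-0.74, adjusted p = 0.000111). The background was highest here, with 75.2% of probe sets called. The WT array after H2O2 also had the lowest median and the lowest 5th percentile of the 12, and the part of these in the results was not tested. With the other normalization, which levels both, the cnp1 difference was larger, at -1.92 (adjusted p = 5.07e-08).

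At 40 °C none of the 3 genes passed in limma's test of the mutants against WT (2 of 3 with the other normalization), against 63.4% of all probe sets called. The differences were -0.15 ± 0.10 for cnp1 (adjusted p = 0.215), 0.05 ± 0.07 for pht1 (adjusted p = 0.537) and -0.12 ± 0.10 for ams2 (adjusted p = 0.336). The 2 that passed with the other normalization were cnp1 (-0.34, adjusted p = 0.00872) and ams2 (-0.42, adjusted p = 0.00587).

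After 40 °C then H2O2 the pht1 signal was higher in the mutants than in WT, by 0.57 ± 0.07 or 1.49-fold (interval 0.43 to 0.72, adjusted p = 5.15e-06). The difference was 0.53 in slm9D and 0.62 in hip1D, and it held with the other normalization (0.55, adjusted p = 5.92e-05). ams2 was likewise higher in the mutants as deposited, by 0.47 ± 0.10 (adjusted p = 0.0013), but with the other normalization its difference was -0.09 with an adjusted p of 0.516, so its direction rests on the scaling. cnp1 was 0.20 ± 0.10 lower without passing (adjusted p = 0.0982), and passed with the other normalization (-0.42, adjusted p = 0.00331) and without the hip1D array (-0.29, adjusted p = 0.0322). Of all probe sets 59.1% were called, beside 2 of these 3.

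**Figure D2:**
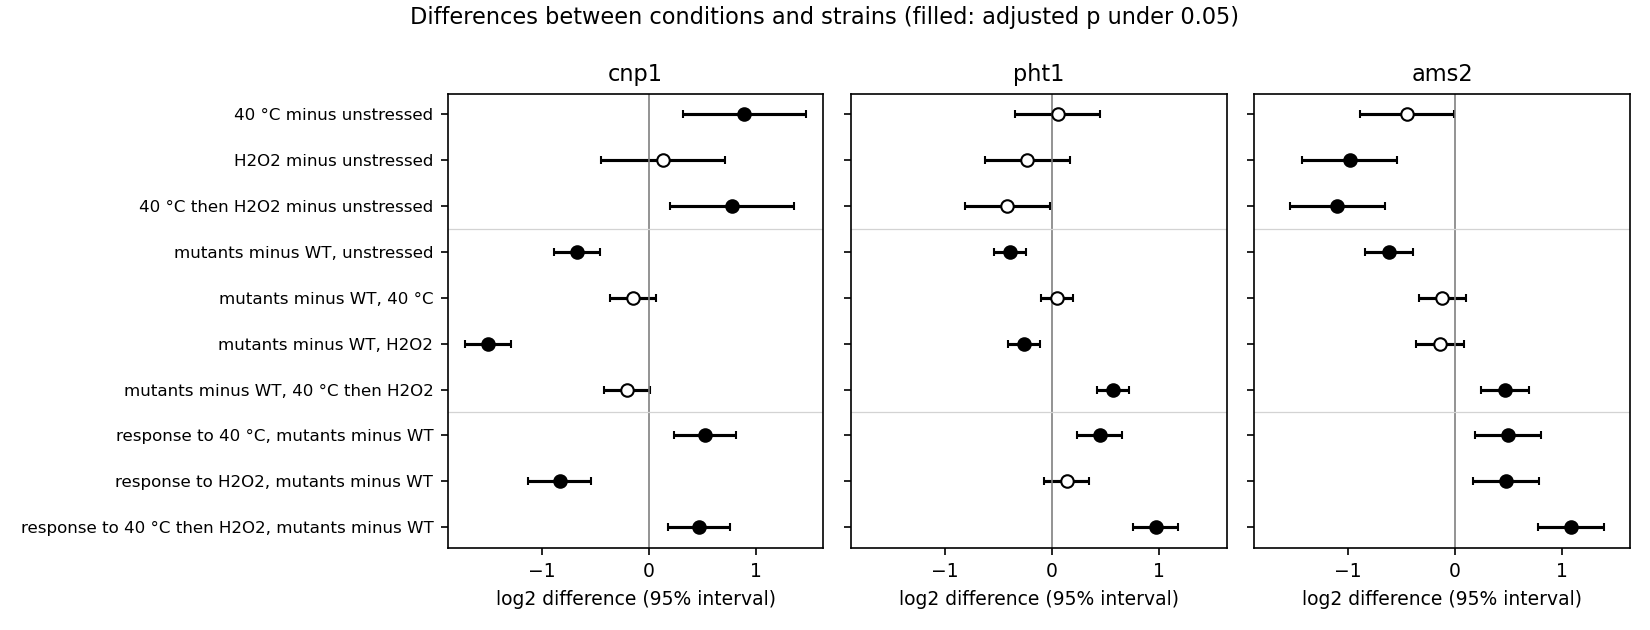
Differences of cnp1, pht1 and ams2 (x axis, log2 difference with its 95% interval) for the stress comparisons over 3 strains, the mutants against WT within each condition, and the mutants' response minus the WT response. Filled points had an adjusted p under 0.05 in limma: cnp1 was lowest in the mutants after H2O2 (-1.505), and the responses of pht1 and ams2 to both stresses differed by 0.97 and 1.08.

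Over all 4 conditions, with strain and condition as terms, cnp1 was the 1 gene of the 3 that passed between mutants and WT. It was lower in the mutants by 0.63 ± 0.19 or 1.55-fold (interval -1.06 to -0.20, adjusted p = 0.0213), with means of 7.61 ± 0.30 in WT, 6.94 ± 0.61 in slm9D and 7.02 ± 0.64 in hip1D (SD, n = 4 conditions), and lower in 8 of 8 mutant arrays than in WT of the same condition. Without the H2O2 arrays the difference was -0.34 with an adjusted p of 0.0511, and it also lost its call without slm9D (-0.59, adjusted p = 0.106), without hip1D (-0.67, adjusted p = 0.0774) and without the unstressed arrays (-0.62, adjusted p = 0.0886). For pht1 the means were 9.85 ± 0.46, 9.84 ± 0.19 and 9.85 ± 0.15 in WT, slm9D and hip1D (SD, n = 4 conditions), a difference of -0.01 ± 0.13 (interval -0.30 to 0.29, adjusted p = 0.968). ams2 differed by -0.10 ± 0.15 (interval -0.43 to 0.23, adjusted p = 0.583) as deposited and by -0.49 (adjusted p = 0.0046) with the other normalization. Of all probe sets 54% were called.

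Deleting slm9 or hip1 gave signals of the 3 genes that could not be separated. The differences slm9D minus hip1D were -0.08 (interval -0.58 to 0.43) for cnp1, -0.01 (interval -0.36 to 0.33) for pht1 and 0.06 (interval -0.33 to 0.44) for ams2, all with an adjusted p of 1 in limma, and the comparison called 0.103% of probe sets. The spread behind these intervals includes how the WT difference varies from condition to condition, and within a condition the mutants were at most 0.179 apart for cnp1, 0.084 for pht1 and 0.182 for ams2.

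Since the mutants differed from WT by amounts that changed with the condition, the responses themselves were compared. To heat, cnp1 responded by 0.55 in WT, 1.05 in slm9D and 1.097 in hip1D, and the mutants' response exceeded that of WT by 0.53 ± 0.14 (adjusted p = 0.00579). To H2O2 alone it responded by 0.69 in WT and by -0.21 in slm9D and -0.09 in hip1D, a response lower in the mutants by 0.83 ± 0.14 (adjusted p = 8.82e-05). To both stresses the cnp1 responses were 0.46 in WT, 0.84 in slm9D and 1.03 in hip1D, higher in the mutants by 0.47 ± 0.14 (adjusted p = 0.0102). The mutants' cnp1 signal after heat and H2O2 was more than 2-fold that after H2O2 alone (by 1.04 in slm9D and 1.12 in hip1D), whereas in WT it was lower by 0.22.

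For pht1 the WT response to both stresses was -1.06, a 2.09-fold lower signal, against -0.12 in slm9D and -0.06 in hip1D, and the mutants' response was higher by 0.97 ± 0.10 (adjusted p = 4.34e-07). To heat alone pht1 responded by -0.24 in WT, 0.24 in slm9D and 0.16 in hip1D, higher in the mutants by 0.45 ± 0.10 (adjusted p = 0.00172), and the difference for H2O2 alone did not pass (0.14 ± 0.10, adjusted p = 0.275). The ams2 signal of WT was 3.54-fold lower after both stresses than in unstressed cells, against 1.69-fold in slm9D and 1.65-fold in hip1D, a response higher in the mutants by 1.08 ± 0.15 (adjusted p = 9.52e-06; 0.63, adjusted p = 0.00542, with the other normalization). For heat the ams2 responses were -0.78, -0.19 and -0.37 in WT, slm9D and hip1D, and the mutants' response was higher by 0.50 ± 0.15 (adjusted p = 0.0117; 0.30, adjusted p = 0.109, with the other normalization). For H2O2 they were -1.30, -0.72 and -0.93, higher by 0.47 ± 0.15 (adjusted p = 0.0126), which turned to -0.03 (adjusted p = 0.901) with the other normalization and missed the threshold without the unstressed slm9D array (0.415, adjusted p = 0.0539). Of all probe sets 40.7% were called for the response to heat, 47.3% for H2O2 and 46% for both stresses, against 3, 2 and 3 of the 3 genes. All these differences share the unstressed arrays, where the mutants' signals of the 3 genes were already lower than those of WT, so each response difference is the mutants' difference from WT under the stress minus the unstressed one. For cnp1 at 40 °C, for example, 0.525 is -0.146 minus -0.671.

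The core histone genes are targets of Ams2, and Cnp1 and Pht1 take the places of H3 and H2A. Of their 9 genes, 12 probe sets were measured: hta1 and hta2 (H2A), htb1 (H2B), hht1, hht2 and hht3 (H3) and hhf1, hhf2 and hhf3 (H4). The H3 and the H4 genes encode near-identical products, and 1 probe set each of hht1, hhf1 and hhf3 is of a class that can bind other genes, so signals within those groups may be shared. Over the strains 0 probe sets rose and 4 fell at 40 °C, those of hht1 (-0.92 ± 0.18, adjusted p = 0.0031) and hhf1 (-0.96 ± 0.24, adjusted p = 0.00971). The median of the 12 was -0.16, against 0.01 over all probe sets, of which 22.7% rose and 25.7% fell (801 rose and 573 fell when arrays were set to equal medians of the outside probe sets, against 662 and 750). After both stresses 5 fell, among them hta2 (-1.498 ± 0.370, adjusted p = 0.00683), and the median was -0.40 against -0.05 (23.8% rose, 33.5% fell). After H2O2 alone no core histone probe set passed in limma (median -0.18 against -0.07; 15.8% of all rose and 29.2% fell, 460 and 852, against 646 and 670 with the other normalization).

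Every core histone probe set was called higher in the mutants than in WT at 40 °C, 12 of 12, with a median of 0.66 against -0.03 over all probe sets (29.3% higher, 34.1% lower). None of the 3 genes passed there as deposited, pht1 lying at 0.05 and cnp1 and ams2 at -0.15 and -0.12. The largest differences there were those of hta2 (1.42 ± 0.05, adjusted p = 6.74e-12), hhf2 (1.39 ± 0.05) and htb1 (1.09 ± 0.04), and the smallest that of hht3 (0.23 ± 0.04). After both stresses it was 12 of 12 again, with a median of 0.55 against -0.01 (29.5% higher, 29.6% lower), from hta2 (1.78 ± 0.05) and htb1 (1.41 ± 0.04) down to hhf1 (0.22 ± 0.08, adjusted p = 0.0258). Both counts were also 12 of 12 under either other scaling. On single arrays the hta2 signal went from 12.79 unstressed to 11.46 at 40 °C, 12.32 after H2O2 and 10.16 after both stresses in WT. In slm9D the same signals were 12.85, 12.87, 12.10 and 11.88, and in hip1D they were 12.89, 12.88, 12.17 and 12.00. Only the WT arrays were thus low in hta2 at 40 °C, and WT was again the lowest strain after both stresses.

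In the other conditions the core histones were mixed. Unstressed, 3 were higher and 5 lower in the mutants (median 0.00 against -0.04; 26% of all higher and 34.6% lower, 759 and 1009, against 913 and 806 at equal medians of the outside probe sets), and 6 were higher and 2 lower with the other normalization. After H2O2 alone 4 were higher, among them htb1 by 0.62 ± 0.04, and 5 lower, among them hhf1 by 0.58 ± 0.08 (median 0.05 against -0.01; 38% of all higher and 37.2% lower), and 7 were higher and 4 lower with the other normalization. Over all conditions 7 were higher and 0 lower (median 0.31 against -0.02; 25.3% of all higher and 28.7% lower), led by hhf2 (0.88 ± 0.14, adjusted p = 0.000808). At 40 °C, then, the mutants exceeded WT for every core histone probe set, while cnp1, pht1 and ams2 did not pass as deposited, and with the other normalization cnp1 and ams2 were lower in the mutants. After both stresses pht1 (0.575) and, as deposited only, ams2 (0.468) were also higher in the mutants. The mutants' response to 40 °C exceeded that of WT for all 12 core histone probe sets (median 0.81, against 0.02 over all). It did so too for cnp1 (0.525), pht1 (0.446) and ams2 (0.498, a call lost with the other normalization), beside 40.7% of all probe sets called.

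**Figure D3:**
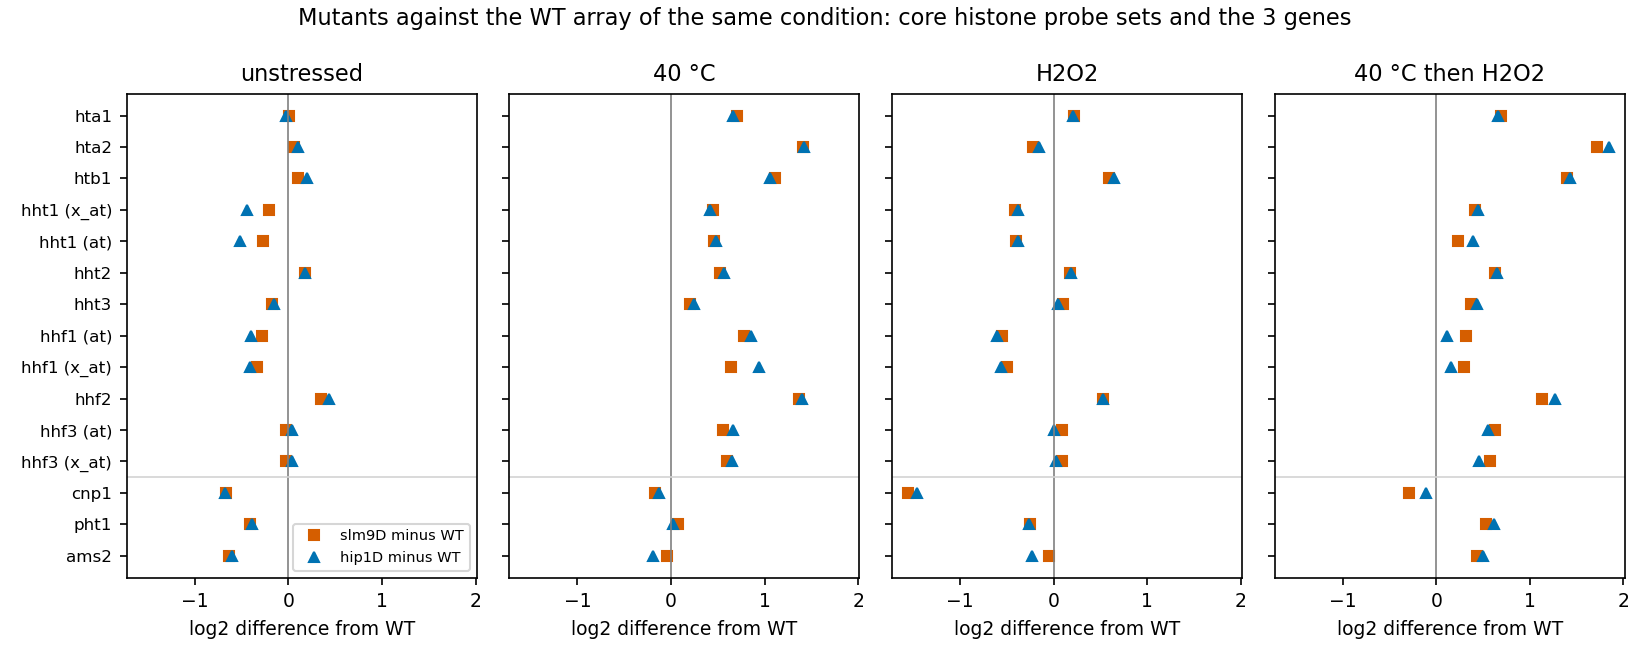
Difference from the WT array of the same condition (x axis, log2) for slm9D (squares) and hip1D (triangles), for the 12 core histone probe sets and, under the line, cnp1, pht1 and ams2, in the 4 conditions. All core histone points lie right of 0 at 40 °C and after 40 °C then H2O2, with hta2 at 1.42 and 1.78 on average, while cnp1 lies left of 0 in all panels.

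Of the genes that load Cnp1 or bind beside it, 14 had been listed and 11 were measured. Over all conditions the mutants had 5 higher and 1 lower (25.3% and 28.7% of all probe sets). The leading ones, all higher, were mis6, an inner kinetochore protein needed for Cnp1 loading, by 1.47 ± 0.14 (adjusted p = 4.37e-05), hrp1, a CHD1-type remodeller, by 1.29 ± 0.13 (adjusted p = 5.23e-05), mis15, a partner of Mis6, by 1.04 ± 0.11 (adjusted p = 7.14e-05) and cnp3, the CENP-C homologue, by 0.57 ± 0.12 (adjusted p = 0.00384). The list's median was 0.28 as deposited and -0.07 with the other normalization, which called 5 higher and 3 lower. At 40 °C 3 rose, namely mal2 (1.03 ± 0.10, adjusted p = 7.41e-05), mis18 (0.67 ± 0.17) and mis6 (0.70 ± 0.19), and 2 fell, mis17 (-0.28 ± 0.09) among them (22.7% and 25.7% of all probe sets), against 1 and 2 with the other normalization and 3 and 0 at equal medians of the outside probe sets. After H2O2 0 rose and 7 fell, among them mis15 (-1.17 ± 0.14, adjusted p = 0.0003), sim4 (-0.95 ± 0.14) and scm3, which carries Cnp1 to the centromere (-1.03 ± 0.20), with a median of -0.41 (15.8% of all rose and 29.2% fell), and 1 rose and 3 fell with the other normalization. After both stresses 0 rose and 7 fell, where cnp1 had risen (23.8% of all rose and 33.5% fell). In the mutants against WT 4 were higher and 0 lower at 40 °C (29.3% and 34.1% of all), against 3 and 2 with the other normalization. After both stresses 6 were higher and 1 lower (mis16, -0.53 ± 0.07), beside 29.5% and 29.6% of all, against 5 and 3 with the other normalization.

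All 16 listed genes of Pht1 exchange, the subunits of SWR1 and the H2A.Z chaperones, were measured. Over all conditions the mutants had 2 higher and 8 lower (median -0.13), beside 25.3% and 28.7% of all probe sets (54% called). The SWR1 subunit genes moved both ways, with swc5 lower by 0.90 ± 0.09 and swc3 higher by 0.88 ± 0.10, while rvb2, an ATPase shared with other complexes, was lower by 0.50 ± 0.05 and yaf9, a chromatin reader also shared with a histone acetyltransferase, by 0.47 ± 0.05. Under heat 6 rose and 5 fell, beside 22.7% and 25.7% of all probe sets. The gene chz1, a chaperone of H2A.Z with H2B in budding yeast, was among the risers in all 3 stress comparisons (0.86 ± 0.10 at 40 °C, 0.70 ± 0.10 after H2O2 and 0.98 ± 0.10 after both stresses). The catalytic subunit gene swr1 fell after H2O2 by 0.94 ± 0.14 (adjusted p = 0.000839). In that comparison 2 of the list rose and 6 fell (3 and 4 with the other normalization), beside 15.8% and 29.2% of all probe sets. After both stresses 4 rose and 8 fell, beside 23.8% and 33.5% of all probe sets. Those that fell included nap1, a histone chaperone (-0.85 ± 0.10), and the bromodomain gene bdf1 (-1.05 ± 0.18). The mutants had 2 higher and 9 lower than WT at 40 °C (29.3% and 34.1% of all probe sets). After both stresses, where pht1 itself was higher, 3 were higher and 9 lower (29.5% and 29.6% of all). Of the 10 measured genes of INO80, a remodeller that also acts on H2A.Z nucleosomes, over all conditions the mutants had 3 higher and 3 lower (54% of all called), and 3 rose and 0 fell at 40 °C (48.4% of all called).

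The 7 genes of Ams2 turnover were those of the ligase SCF-Pof3 and of the kinase Hsk1-Dfp1, with ned8 listed beside them. pof3, the F-box subunit that recognises Ams2, was higher in the mutants over all conditions by 0.75 ± 0.07 (adjusted p = 5.03e-05), and skp1, the adaptor, by 0.35 ± 0.05, while rbx1, the RING subunit, and hsk1 were lower by 0.45 ± 0.07 and 0.29 ± 0.08, so that 2 were higher and 3 lower (25.3% and 28.7% of all probe sets). Among the stress comparisons hsk1 fell after H2O2 by 1.35 ± 0.11 (adjusted p = 6.98e-05) and after both stresses by 0.91 ± 0.11. The gene dfp1, its regulatory subunit, fell in all 3, by 0.78 ± 0.17 at 40 °C, 0.76 ± 0.17 after H2O2 and 1.20 ± 0.17 after both stresses. The scaffold gene cul1 rose in all 3, by 0.40 ± 0.13, 0.53 ± 0.13 and 0.60 ± 0.13. After H2O2, 4 of the 7 rose and 3 fell in all (15.8% and 29.2% of all probe sets).

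Other regulators of histone genes were 8 on the list and 7 measured. In the mutants over all conditions 3 were higher, namely hip3, a further HIRA subunit (0.77 ± 0.12), gcn5, a histone acetyltransferase (0.96 ± 0.19), and teb1, a DNA-binding factor of histone promoters (0.48 ± 0.10), and 1 was lower, pob3, a subunit of the chaperone FACT (-0.21 ± 0.05). That is 4 of 7 called, beside 54% of all probe sets. teb1 rose at 40 °C by 0.62 ± 0.14 (adjusted p = 0.00528) and after both stresses by 0.68 ± 0.14. The ams2 differences in these conditions were -0.45, which did not pass, and -1.1. After H2O2 alone, where the ams2 difference was -0.985 and passed, teb1 was not called. asf1, an H3-H4 chaperone, fell after H2O2 by 0.71 ± 0.13 (adjusted p = 0.00195) and after both stresses by 0.63 ± 0.13.

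Because ams2 and the histone genes are periodic, genes of neighbouring cell cycle stages were set beside them. Of 20 listed G1/S genes 19 were measured, and 8 fell and 3 rose at 40 °C, 11 fell and 0 rose after H2O2, and 12 fell and 1 rose after both stresses, with medians of -0.32, -0.60 and -1.07. Of all probe sets 25.7%, 29.2% and 33.5% fell and 22.7%, 15.8% and 23.8% rose in these comparisons. Among these the replication licensing genes cdc18 (-3.20 ± 0.20, adjusted p = 3.53e-06) and cdt1 (-3.94 ± 0.35, adjusted p = 2.12e-05) fell after both stresses. Of 20 genes of mitosis and cell separation 17 were measured, of which 10 fell and 1 rose under heat, 9 fell and 1 rose with H2O2, and 14 fell and 0 rose with both stresses, where slp1, an activator of the anaphase-promoting complex (-2.98 ± 0.23), and the Aurora kinase gene ark1 (-2.85 ± 0.28) fell. In the mutants against WT 12 of these 17 were higher and 1 lower at 40 °C, and 13 higher and 0 lower after both stresses, among them bir1 by 1.27 ± 0.08 (9 higher and 2 lower with the other normalization). In unstressed cells the same list had 1 higher and 7 lower, and after H2O2 alone 3 higher and 8 lower. Of the G1/S list, the mutants had 1 gene higher and 8 lower before stress. Under heat it was 6 higher and 4 lower (4 and 8 with the other normalization), with H2O2 alone 7 and 8 (3 and 13), and with both stresses 10 and 2 (5 and 7). Of all probe sets 26% were higher in the mutants and 34.6% lower before stress, and 29.3% and 34.1% at 40 °C. After H2O2 alone these shares were 38% and 37.2%, and after both stresses 29.5% and 29.6%. Genes of both stages thus fell in the stress comparisons in which ams2 fell, and the part of the cell cycle in the results was not tested.

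To place the 3 patterns among all genes, log2 signals were correlated over the 12 arrays with those of 2905 probe sets above background. The arrays share strains and conditions, so r is a description only. cnp1 was most like cid12, a poly(A) polymerase of the RNA-directed RNA polymerase complex (r = 0.942), snf5, a subunit of SWI/SNF (0.935), sdu1 (0.934), uvi31 (0.930) and erv1, a mitochondrial sulfhydryl oxidase (0.925). cid12 after H2O2 alone was 7.29 in WT, 5.96 in slm9D and 6.16 in hip1D, and at 40 °C it was 7.54, 7.18 and 7.09. WT was again high after H2O2 alone, where the mutants were low. Without the WT array after H2O2 these 5 values were 0.929 to 0.938.

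ams2 was most like rum1, the inhibitor of cyclin-dependent kinase that acts in G1 (r = 0.978), rav2 (0.967), ppk25, a protein kinase (0.963), ldb1 (0.963) and gyp3 (0.960). rum1 went from 8.24 in unstressed WT to 6.63 in WT after both stresses, and from 7.82 to 6.96 in slm9D and 7.89 to 7.03 in hip1D. After H2O2 alone it was 6.81 in WT, 6.93 in slm9D and 6.74 in hip1D. pht1 was most like mug123 (r = 0.922), gda1, a guanosine diphosphatase of the Golgi (0.894), abp2, a protein that binds replication origins (0.893), pcd1 (0.890) and mto2, a part of the linker that recruits microtubule nucleation (0.888). mug123 was lowest in WT after both stresses, at 5.43 against 6.33 in slm9D and 6.40 in hip1D.

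Between the 3 genes, pht1 and ams2 had r = 0.820, cnp1 and pht1 0.142, and cnp1 and ams2 -0.115. The core histones ranged from -0.444 to -0.226 with cnp1. With pht1 they ranged from 0.011 (hht3) to 0.776 (hta2), and with ams2 from -0.227 (hht3) to 0.669 (hta2). hta2 was thus the core histone gene most like both pht1 and ams2, and hht3 the least.

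**Figure D4:**
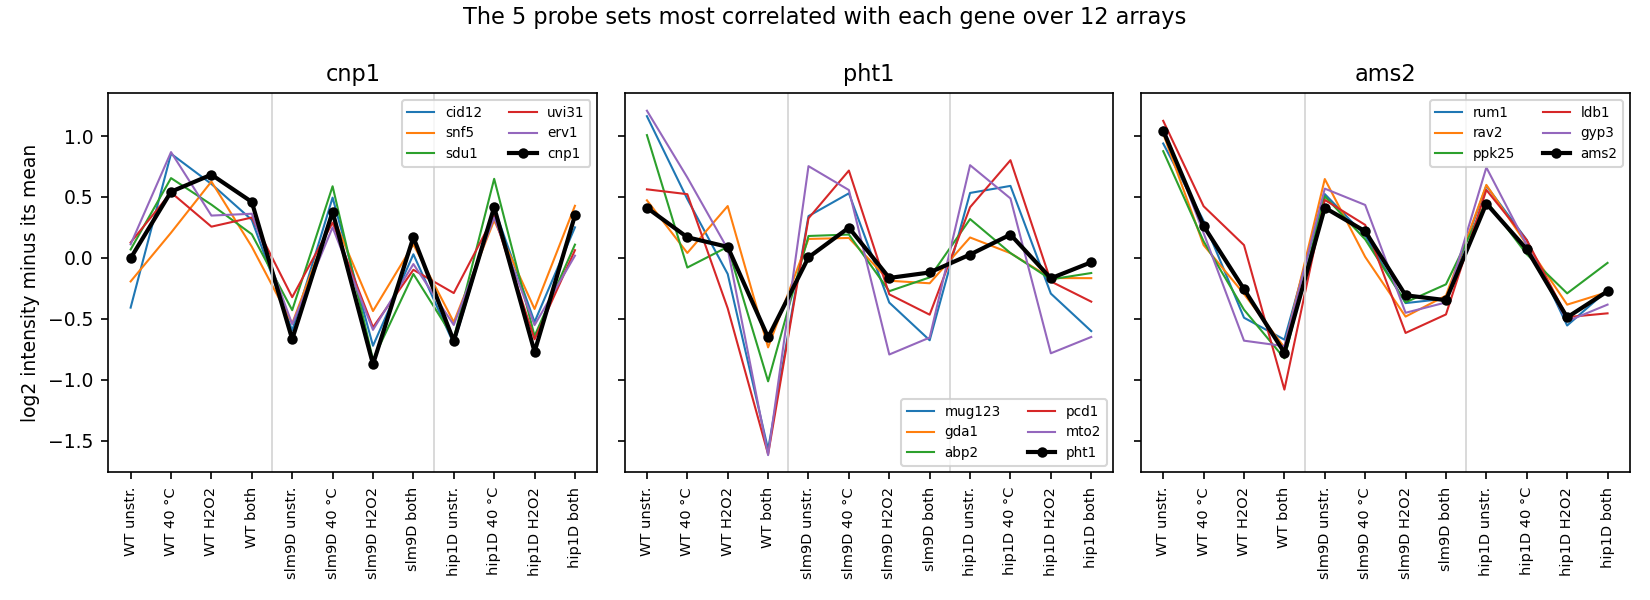
Signals of cnp1, pht1 and ams2 (black) and of the 5 probe sets most correlated with each (colours) over the 12 arrays (x axis, by strain and condition; both means 40 °C then H2O2), each as log2 intensity minus its own mean (y axis). The cnp1 group has its low points in the mutants unstressed and after H2O2, and the pht1 group its lowest in WT after both stresses, where pht1 was 9.20.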

How the data were processed

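The authors deposited probe set intensity values on a linear scale (2.88 to 20293), which per the submitters' processing notes came from Affymetrix Expression Console 1.1 and the RMA method (its settings: not given in the sources used here). RMA normalizes all probes of an array together, so total RNA differences are removed. Log2 was taken of all 12 value columns (0 columns were left unused). Of 10928 probe sets, 213 were controls, 5177 had no gene name, 20 were shared by several S. pombe genes, 2601 were assigned outside the S. pombe table and 2917 had 1 S. pombe gene, 2914 matched by gene ID and 3 by symbol.

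R 4.3.3 and limma 3.58.1 (lmFit, eBayes with intensity trend) were used, with Benjamini-Hochberg adjustment over 2917 probe sets and calls at an adjusted p under 0.05. Comparisons over strains or conditions used strain and condition as terms, which pairs the arrays of a strain. The design text speaks of aliquots and of growth in quadruplicate, and does not say whether a strain's conditions share a culture. Mutants against WT within a condition used 8 means, and response differences 8 means plus slm9D against hip1D. The fits were tested on simulated data. The members and gene lists were chosen with earlier results of these data known. Genes named are the 3 members, slm9, hip1 and ura4, the core histones, from each other list at most 4 genes, those with the smallest p per comparison, and the 5 most correlated probe sets of each member. Alternatives were no trend, a filter on dim probe sets, 2 other scalings (quantile normalization of the S. pombe probe sets by themselves, and equal medians of outside probe sets), log2(value + 16), other sets of arrays, leaving out strains or conditions and, added after seeing the data, leaving out single mutant arrays. The arrays' number limits the precision. Sequences of the genes, promoters and proteins were not analysed here.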

Additional observations from a re-analysis of the deposited data

Results flagged for a closer look

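The responses to stress differed between the mutants and WT by the interaction term of the limma fit in 8 of 9 tests on the 3 genes, beside 40.7% (40 °C), 47.3% (H2O2) and 46% (both stresses) of all probe sets. For heat the mutants' response minus the WT response was 0.525 for cnp1, 0.446 for pht1 and 0.498 for ams2 (log2). For H2O2 alone it was -0.833 for cnp1 and 0.475 for ams2. For 40 °C then H2O2 it was 0.47 for cnp1, 0.97 for pht1 and 1.083 for ams2. Each rests on 1 WT array per condition, and the 3 responses of a gene share the unstressed arrays. When the S. pombe probe sets were quantile-normalized by themselves the ams2 values were 0.302 (adjusted p = 0.109), -0.025 (adjusted p = 0.901) and 0.631 (adjusted p = 0.00542), so that the first and second calls were lost and 6 of 9 were left, and those of cnp1 and pht1 kept their sign and call.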

How the results depend on the processing

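Of 336 values of the 3 genes under other settings, 294 kept their direction and side of the threshold, 16 passed it newly, 13 no longer passed and 13 changed sign. No trend, the filter on dim probe sets, log2(value + 16) and 8 means alone changed no call. Quantile normalization on S. pombe probe sets, where array medians moved by at most 0.149 (WT after H2O2), gave new calls for ams2 in the mutants over all conditions (-0.49), at 40 °C (-0.415) and after H2O2 (-0.743), for cnp1 in the mutants at 40 °C (-0.341) and after both stresses (-0.424), for ams2 at 40 °C (-0.616) and for pht1 after both stresses against 40 °C (-0.454). It ended calls for cnp1 at 40 °C (0.74), ams2 after both stresses against 40 °C (-0.276) and the ams2 response to 40 °C (0.302), and turned cnp1 after both stresses against 40 °C (0.24), ams2 in the mutants after both stresses (-0.086) and its response to H2O2 (-0.025). Equal medians of outside probe sets turned pht1 in the mutants over all conditions (0.041) and newly called pht1 after both stresses against 40 °C (-0.499). Fitting only the conditions compared called the latter (-0.472) and ams2 at 40 °C (-0.45).

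Leaving out a strain or a condition gave these ranges. Mutants against WT over all conditions ran from -0.792 to -0.339 (cnp1), -0.2 to 0.123 (pht1) and -0.291 to 0.07 (ams2), and slm9D minus hip1D from -0.035 to 0.012 for pht1. At 40 °C cnp1 ran from 0.796 to 1.071, pht1 from -0.039 to 0.204 and ams2 from -0.578 to -0.284. After H2O2 cnp1 ran from -0.147 to 0.299 and pht1 from -0.258 to -0.182. After both stresses cnp1 ran from 0.65 to 0.933. Both stresses against H2O2 gave 0.409 to 1.08 (cnp1), -0.349 to 0.089 (pht1) and -0.28 to 0.087 (ams2), and against 40 °C -0.595 to -0.298 (pht1) and -0.803 to -0.455 (ams2). The interaction ran from -0.387 to 0.009 (cnp1) and 0.207 to 0.425 (ams2). Leaving out WT, which leaves the mutants' small gap as the spread, gave the new calls among these. Leaving out either mutant ended calls of cnp1 and ams2, and the cnp1 difference between mutants and WT was also lost without the unstressed or the H2O2 arrays. The cause of these losses was not tested. Leaving out 1 mutant array within a condition or 1 unstressed mutant array, chosen after seeing the data, kept 58 of 60 values on their side, the lone mutant array being assumed to vary like the other groups. The exceptions were cnp1 in the mutants after both stresses (-0.29 to -0.111), newly called, and the ams2 response to H2O2 (0.391 to 0.559), lost.

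Counts of called probe sets moved with the arrays used: 1575 over all conditions against 869 to 1399, 1412 at 40 °C against 623 to 2179, 1312 after H2O2 against 415 to 2112, 1670 after both stresses against 1030 to 2305, 1044 for both stresses against H2O2 against 205 to 1825 (438 with the compared arrays only), 1333 for both stresses against 40 °C against 394 to 2150, 430 for the interaction against 1 to 1616, and 3 for slm9D minus hip1D against 2 to 3 (10 on mutant arrays only). Arrays were paired by the strain and condition terms already in the fits, and the labels carry no replicate numbers for any further pairing. Low signals limit cnp1 and ams2, which lie near the 10th percentile of the S. pombe signals on most arrays.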
